A study of Homo sapiens with 51 samples.

Results

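The comparison described is that of 3 libraries of PK45H cells given OVOL2 with 3 libraries of PK45H cells given mCherry, both with M2rtTA, out of 51 libraries in the series. The 6 libraries were taken by their titles, which name the line, the open reading frame and M2rtTA. PK45H is an established human pancreatic ductal adenocarcinoma (PDA) line. Both groups received a lentiviral open reading frame at a multiplicity of infection of 2 in the presence of 8 µg/ml polybrene, together with a lentivirus for M2rtTA, the reverse tetracycline transactivator that drives tetracycline-inducible promoters. Both then received 2.5 µg/ml puromycin and 0.6 µg/ml doxycycline from the day after transduction, and RNA was taken from a culture of 6 days in total. The open reading frame was OVOL2 in one group and mCherry, a red fluorescent protein used as the negative control, in the other. The control cells therefore also carried a virus, M2rtTA, the antibiotic and doxycycline, and the labels name neither the promoter before the open reading frame nor whether the cells were a clone or a mixed population. PK45H cells with the same open reading frames but no M2rtTA, and untreated PK45H cells, served as references, with 3 libraries each. The libraries of a group are triplicate transductions per the labels, so the p-values measure the spread between them within 1 line.

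OVOL2 is a zinc-finger transcription factor of epithelia that acts largely as a repressor. It is known for holding down ZEB1 and other drivers of the epithelial-mesenchymal transition, in which cells lose E-cadherin junctions and keratins and gain matrix and motility genes. Carcinoma lines differ in how far they lie along this axis, and in PDA the less differentiated end is also described as basal-like or quasi-mesenchymal.

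Levels below are CPM, counts scaled to a common library size with TMM factors (trimmed mean of M-values) over the 15 PK45H libraries. A log2 fold change is OVOL2 minus mCherry, with its standard error (SE), and a gene is called when its edgeR quasi-likelihood p, adjusted by Benjamini-Hochberg over all 13583 genes tested, is under 0.05. Library totals were 5332703 to 6695312 counts in the mCherry group and 3776809 to 5018458 in the OVOL2 group, so depth moved with the group without overlap. With every library thinned to the smallest of the 15 totals, 1657 genes were called, of which 1508 were among those called at full depth. Mitochondrial transcripts took 24.11% to 26.03% of the counts with mCherry and 25.04% to 25.21% with OVOL2. All 6 libraries correlated better with untreated PK45H (r of 0.921 to 0.971 over 14479 genes) than with any other untreated line (at most 0.908). In 3′ counts of bulk RNA, more RNA per cell and a larger share of cells with a transcript cannot be told apart.

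OVOL2 itself was higher in the OVOL2 libraries, at a low level. It had 7, 3 and 12 counts in the mCherry libraries (1.03, 0.563 and 1.75 CPM) and 23, 18 and 18 counts in the OVOL2 libraries (4.67, 4.72 and 4.32 CPM). The groups did not overlap, and the log2 fold change was 1.98 (SE 0.48, adjusted p = 0.0135). The call was lost without mCherry replicate 1 (adjusted p = 0.0551) and without mCherry replicate 2 (adjusted p = 0.0615). The ratio of the summed counts, scaled to depth, was 3.84, with an exact 95% interval of 2.32 to 6.58 that covers counting error only. Whether the 3′ reads can come from a transcript of the vector, which may carry its own 3′ end, is not stated in the labels, so these counts may not measure the introduced gene in full. The PK45H libraries given OVOL2 without M2rtTA differed from their own controls by 0.12 on the log2 scale (adjusted p = 0.928). The difference between the changes with and without M2rtTA was 1.86 (SE 0.74) and was not called (adjusted p = 0.212).

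Across all genes, 2153 of 13583 were called (15.9%), 1012 higher (7.45%) and 1141 lower (8.4%) with OVOL2. At least 2-fold differences were found in 516 genes called higher and 490 called lower, and at least 4-fold ones in 160 and 69. The median log2 fold change of all genes tested was 0.0051. The number called was 1387 without mCherry replicate 2, 1435 without mCherry replicate 3 and 1424 when only the 6 libraries compared were fitted. In 2093 of the called genes the 2 groups did not overlap; over all genes tested, 15.9% had every OVOL2 library above every mCherry library and 17.8% had every one below. Few genes were called between the control groups: mCherry with M2rtTA differed from untreated PK45H in 4 genes (0.0294%) and from mCherry without M2rtTA in 4 (0.0294%). No polybrene, puromycin or doxycycline is listed for the untreated cells. Few calls at 3 libraries a group do not show that the groups were alike. GSTM3 with mCherry and M2rtTA stood 3.31 above untreated cells on the log2 scale and was not called (adjusted p = 0.0518).

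**Figure D1:**
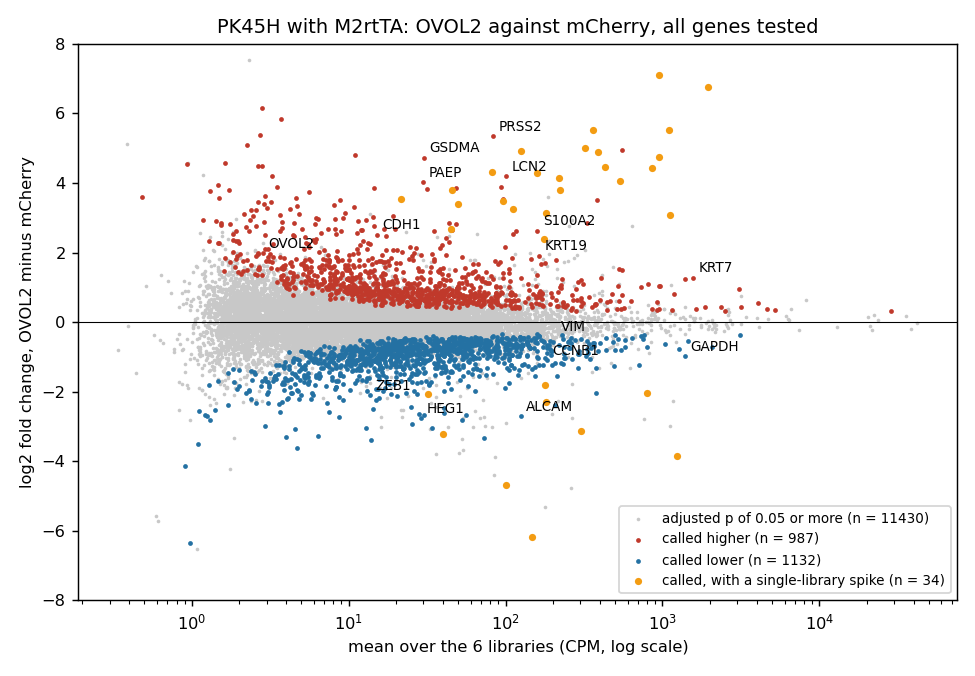
Log2 fold change of OVOL2 against mCherry for each of the 13583 genes tested, against the mean level over the 6 libraries (CPM, log axis). Red and blue points are genes called higher and lower, orange points are the 34 called genes in which 1 library stood at least 5-fold above its mates, grey points were not called, and 1 gene lies beyond the axis; LCN2, GSDMA and PRSS2 lie far above zero and ALCAM and HEG1 below it.

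The best supported rises included secreted, protease and keratin genes. LCN2, which encodes the secreted siderophore-binding lipocalin 2, stood at 11.1, 9.95 and 10.2 CPM with mCherry and at 224, 176 and 171 CPM with OVOL2. It was 18.2-fold higher (log2 fold change 4.19, SE 0.19, adjusted p = 1.8e-08), against 9.77 ± 2.43 CPM (SD, n = 3) in untreated cells. GSDMA encodes gasdermin A, a pore-forming protein of skin epithelium. Its levels were 1.48, 2.44 and 2.62 CPM with mCherry and 60.7, 59.5 and 53.5 CPM with OVOL2, a log2 fold change of 4.72 (SE 0.24, adjusted p = 7.59e-08). PADI2, a peptidylarginine deiminase that turns arginine into citrulline in proteins, went from 14.2, 10.9 and 10.8 CPM to 82.2, 86.5 and 83.8 CPM, a log2 difference of 2.81 (SE 0.20). In each of these 3 genes the lowest OVOL2 library lay several-fold above the highest mCherry library.

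PRSS2, an anionic trypsinogen made in bulk by acinar cells, had 41, 17 and 18 counts with mCherry and 847, 732 and 512 with OVOL2 (6.05, 3.19 and 2.62 against 172, 192 and 123 CPM; log2 fold change 5.34, SE 0.36, adjusted p = 1.17e-06). PRSS1, its close paralogue, had 1, 0 and 1 counts against 29, 23 and 17, and reads of one may be counted for the other. PAEP, which encodes the secreted lipocalin glycodelin, stood at 4.43, 3.57 and 2.33 CPM with mCherry and at 64.7, 60.8 and 43.9 CPM with OVOL2 (log2 fold change 4.03, SE 0.28). PAEP was also 1 of the 4 genes that differed between mCherry with M2rtTA and untreated cells: untreated cells had 13.2 ± 2.59 CPM (SD, n = 3), a log2 difference of -1.93 for mCherry minus untreated (adjusted p = 0.0261). Its rise over mCherry is therefore larger than its distance from untreated cells.

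4 more genes completed the set with the smallest p among those called higher. KRT19, the type I keratin of ductal epithelium, had 68.2, 70.8 and 68.2 CPM with mCherry and 292, 250 and 236 CPM with OVOL2 (log2 fold change 1.91, SE 0.14, adjusted p = 1.81e-06). S100A2, a calcium-binding protein of basal epithelium, had 43.4, 43.8 and 45.9 CPM against 355, 234 and 235 CPM (log2 fold change 2.63). SNCG, gamma-synuclein, had 11.2, 11.4 and 15.01 CPM against 79.8, 66.3 and 88.6 CPM (log2 fold change 2.64). C1orf116 had 5.31, 3.19 and 3.64 CPM against 37.8, 30.4 and 34.3 CPM (log2 fold change 3.06). No library of either group crossed into the range of the other in these 4 genes.

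By size, the list of rises added CST6 and SKIL, which differ in how their libraries agree. CST6, the cysteine protease inhibitor cystatin E/M, had 1, 2 and 11 counts with mCherry and 122, 69 and 86 with OVOL2 (log2 fold change 4.81, SE 0.45, adjusted p = 1.33e-05). SKIL, which encodes SnoN, a repressor bound to SMAD proteins, stood at 46.2, 12.2 and 45.3 CPM against 1178, 622 and 1428 CPM (log2 fold change 4.96, SE 1.38, adjusted p = 0.0261). The 3 OVOL2 libraries were all far above the mCherry ones, but the spread within both groups was wide and the call was lost in 5 of the alternative fits. SKIL was also uneven in untreated cells and with OVOL2 without M2rtTA, with an SD above the mean. It stood at 48.45 ± 65.96 CPM in untreated cells and at 336.5 ± 533.8 CPM with OVOL2 without M2rtTA (SD, n = 3). With mCherry without M2rtTA it was more even, at 12.66 ± 2.15 CPM (SD, n = 3). The log2 fold change without M2rtTA was 4.73 (SE 1.385, adjusted p = 0.0499).

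The falls with the smallest p were in genes of several kinds, among them an adhesion receptor and a RAS-related GTPase. ALCAM, the immunoglobulin-family adhesion receptor CD166, stood at 211, 223 and 214 CPM with mCherry and at 32.9, 33.0 and 33.1 CPM with OVOL2, 6.54-fold lower (log2 fold change -2.71, SE 0.12, adjusted p = 1.8e-08). The 3 libraries of each group lay closer together than in almost any other gene named here. HEG1, a transmembrane mucin-like receptor that binds KRIT1, had 47.7, 49.4 and 54.5 CPM against 6.90, 7.08 and 8.16 CPM (log2 fold change -2.77, SE 0.15). EPDR1, a secreted and lysosomal ependymin-related protein, had 96.8, 97.1 and 96.3 CPM against 13.0, 18.1 and 14.4 CPM (log2 fold change -2.67, SE 0.16).

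FSTL1, a secreted follistatin-like glycoprotein, had 79.1, 98.6 and 99.2 CPM with mCherry and 13.2, 11.5 and 14.2 CPM with OVOL2 (log2 fold change -2.83). GPX8, a peroxidase of the endoplasmic reticulum, had 41.6, 43.0 and 49.8 CPM against 5.88, 4.98 and 6.72 CPM (log2 fold change -2.93). Both genes fell by more than 4-fold with no overlap between groups. The remaining genes of this set were S100A16 (log2 fold change -1.89), GNG11, a G-protein gamma subunit (-1.98), RRAS, a RAS-related GTPase (-1.52), and SKP2, the F-box subunit that targets the cell cycle inhibitor p27 for degradation (-1.98). SKP2 stood at 68.0, 66.5 and 61.2 CPM with mCherry and at 18.1, 15.2 and 16.1 CPM with OVOL2.

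The falls of largest size were less even between libraries. AK5, an adenylate kinase, had 26.7, 25.2 and 17.1 CPM with mCherry and 3.86, 2.88 and 1.44 CPM with OVOL2 (log2 fold change -3.04, SE 0.29), and FABP4, a fatty acid-binding protein, had 16.1, 10.3 and 8.16 CPM against 1.22, 1.83 and 0.480 CPM (log2 fold change -3.28, SE 0.45). APOBEC3A_B, the hybrid gene model of 2 cytidine deaminases, fell by 3.40 and APOBEC3B by 2.65 on the log2 scale; the 2 models share sequence, so their reads may be split between them. GSTM3, a glutathione transferase, had 19.3, 50.7 and 113 CPM with mCherry and 5.68, 8.39 and 7.92 CPM with OVOL2, against 6.09 ± 1.25 CPM (SD, n = 3) in untreated cells. GOLM2 had 153, 14.3 and 231 CPM with mCherry and 12.8, 15.5 and 11.5 CPM with OVOL2, against 12.5 CPM in untreated cells; its call was lost in 7 of the alternative fits (adjusted p up to 0.0963). For GSTM3 and GOLM2 the OVOL2 libraries thus stood near the untreated level, and 1 mCherry library of GOLM2 stood there too. CXCL5, a chemokine for neutrophils, had 7, 11 and 19 counts with mCherry and 0 in all 3 OVOL2 libraries, at least 8.61-fold lower when the OVOL2 group is set to a floor of 3 counts over the group.

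**Figure D2:**
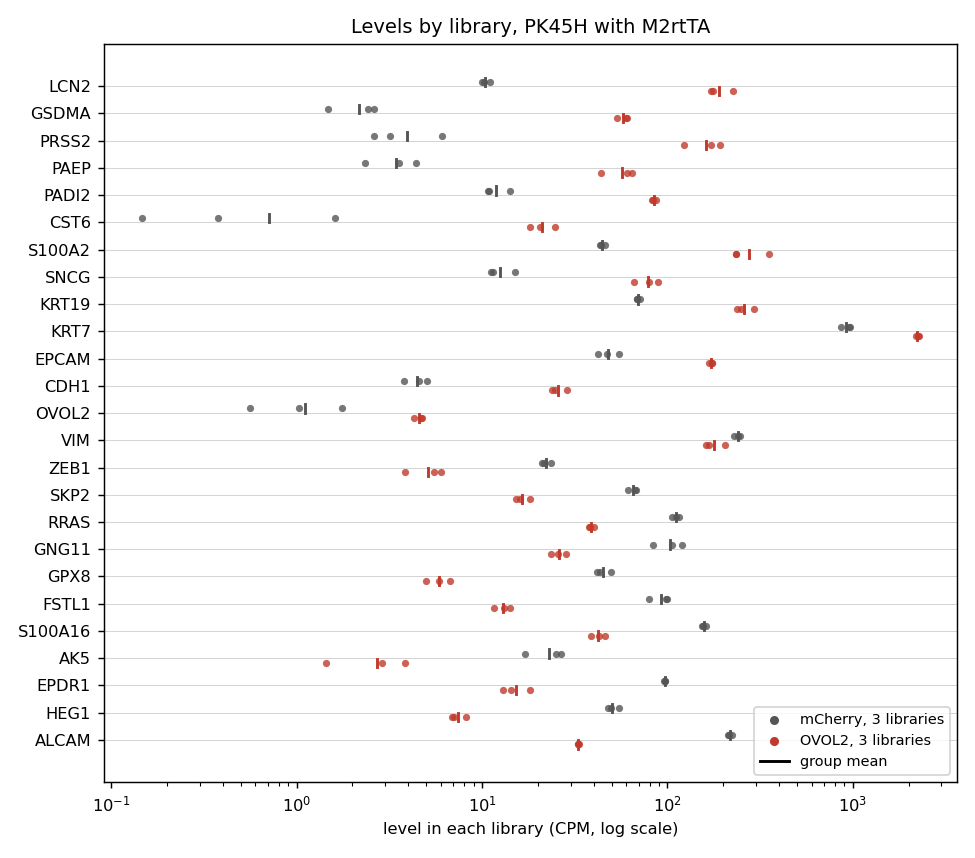
Level of 25 genes in each of the 6 libraries (CPM, log axis), grey for mCherry and red for OVOL2, with a bar at each group mean. The groups are apart in all 25 rows, by the least in VIM, which was not called. The other genes shown were called, so their separation follows largely from the choice. Over all genes tested, 15.9% had every OVOL2 library above every mCherry library and 17.8% had every one below. ALCAM libraries with OVOL2 lie on 1 spot at about 33 CPM.

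To set the sequences of these genes beside their changes, the 250 bases before the annotated start were read for genes tested, where the RefSeq promoter table (GRCh38.p14) held them (10693 of 13583 genes). The letters CCGTTA (or TAACGG on the other strand) are the core known to be bound by OVOL proteins, and CACCTG (or CAGGTG) is the E-box known to be bound by ZEB1 and SNAI2. The motifs do not overlap each other. CCGTTA was in 3.28% of the windows of genes tested and in 2.52% of all 27305 windows, in 4.79% of those of genes called lower and in 2.60% of those of genes called higher. Among genes at least 2-fold lower it was in 23 of 400 windows (5.75%), and among genes at least 2-fold higher in 9 of 370 (2.43%). The E-box was in 15.75% of the windows of genes tested and in 17.5% of all, in 22.1% of those called higher and 13.5% of those called lower. In genes at least 2-fold higher the share was 98 of 370 windows (26.5%), and in genes at least 2-fold lower 58 of 400 (14.5%). These are shares of windows that hold the letters, with no test, and say nothing of binding in these cells.

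Windows of 6 genes are shown, 5′ to 3′ on the gene's strand and ending at the base before the start, with the matches in capitals, because they hold the letters for 3 of the best supported rises and 3 falls. CCGTTA stands at bases -58 to -53 before the GPX8 start, the E-box at -128 and -14 in LCN2, at -180 in GSDMA, at -172 and -103 in PRSS2, at -57 in ZEB1 and at -109 in ALCAM, counted to the first base of each match.
LCN2 chr9:128149203-128149452 (plus strand): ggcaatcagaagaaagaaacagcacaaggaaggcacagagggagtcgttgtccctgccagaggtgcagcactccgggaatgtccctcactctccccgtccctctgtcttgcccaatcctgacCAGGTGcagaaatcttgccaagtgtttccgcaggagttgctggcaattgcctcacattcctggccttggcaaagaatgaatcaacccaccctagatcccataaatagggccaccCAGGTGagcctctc
GSDMA chr17:39962754-39963003 (plus strand): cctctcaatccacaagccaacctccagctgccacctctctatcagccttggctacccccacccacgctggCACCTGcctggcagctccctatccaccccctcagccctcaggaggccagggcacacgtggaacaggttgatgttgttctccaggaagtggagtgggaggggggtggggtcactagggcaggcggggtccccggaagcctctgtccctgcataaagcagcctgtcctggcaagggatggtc
PRSS2 chr7:142770720-142770969 (plus strand): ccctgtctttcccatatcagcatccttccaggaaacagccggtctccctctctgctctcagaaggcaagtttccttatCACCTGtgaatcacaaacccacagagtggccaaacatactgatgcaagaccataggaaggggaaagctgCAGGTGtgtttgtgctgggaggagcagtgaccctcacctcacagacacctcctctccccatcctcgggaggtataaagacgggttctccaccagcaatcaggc
GPX8 chr5:55159921-55160170 (plus strand): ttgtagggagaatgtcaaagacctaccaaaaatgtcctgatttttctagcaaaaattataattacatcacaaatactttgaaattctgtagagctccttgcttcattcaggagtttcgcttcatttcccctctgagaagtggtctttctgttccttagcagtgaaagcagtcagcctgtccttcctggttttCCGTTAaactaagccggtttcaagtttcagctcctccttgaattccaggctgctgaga
ZEB1 chr10:31318167-31318416 (plus strand): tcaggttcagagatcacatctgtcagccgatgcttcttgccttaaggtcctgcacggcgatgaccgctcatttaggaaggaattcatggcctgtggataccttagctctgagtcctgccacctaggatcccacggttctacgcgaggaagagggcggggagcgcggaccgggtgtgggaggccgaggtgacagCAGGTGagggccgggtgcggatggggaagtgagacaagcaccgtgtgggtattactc
ALCAM chr3:105366659-105366908 (plus strand): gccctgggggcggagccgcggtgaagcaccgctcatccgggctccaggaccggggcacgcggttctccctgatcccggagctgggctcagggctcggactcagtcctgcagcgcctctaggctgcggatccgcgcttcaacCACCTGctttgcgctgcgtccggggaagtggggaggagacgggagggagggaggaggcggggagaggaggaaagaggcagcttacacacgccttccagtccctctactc
The E-box letters are thus found before genes that rose (LCN2, GSDMA, PRSS2) and before genes that fell (ZEB1, ALCAM). The ZEB1 window did not hold CCGTTA. Neither motif was found in the windows of PAEP, S100A2, SNCG and SKIL, which rose, or of VIM, which was not called. The windows of HEG1, EPDR1, FSTL1, GNG11, SKP2, GSTM3 and AK5, which fell, held neither motif as well.

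Among junction genes, which define epithelium, more members rose than fell. For this and each list below, counts of called members stand against 7.45% called higher and 8.4% called lower of all genes tested. Of 14 tested genes of adherens junctions and the epithelial surface, 6 rose and 1 fell, with a median log2 fold change of 0.49. CDH1, which encodes E-cadherin, stood at 4.57, 5.07 and 3.79 CPM with mCherry and at 23.7, 28.6 and 24.7 CPM with OVOL2 (log2 fold change 2.52, SE 0.27, adjusted p = 4.97e-05). EPCAM, the epithelial cell adhesion molecule, had 54.7, 47.3 and 42.0 CPM against 174, 174 and 167 CPM (log2 fold change 1.84, SE 0.17), and JUP, plakoglobin, had 35.3, 31.4 and 29.0 CPM against 106, 95.2 and 102 CPM (log2 fold change 1.66). The 3 genes were 3.17-fold to 5.73-fold higher, and no OVOL2 library lay within the mCherry range. CDH3 (P-cadherin, -0.00) and the catenins CTNNA1 (0.35) and CTNNB1 (0.28) were not called.

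Tight junction genes counted 7 rises and no fall among 16 tested, with a median of 0.98. MYO5B, a motor of apical recycling endosomes, had 6.64, 8.26 and 6.85 CPM with mCherry and 19.9, 21.0 and 19.2 CPM with OVOL2 (log2 fold change 1.47, SE 0.15), and F11R, the junctional adhesion molecule JAM-A, had 40.7, 54.5 and 52.7 CPM against 122, 108 and 92.9 CPM (1.13, SE 0.15). CGN, cingulin, and CLDN9, a claudin, rose from few reads: CGN had 3, 3 and 2 counts against 14, 14 and 21, and CLDN9 had 1.03, 0.751 and 2.04 CPM against 9.74, 6.29 and 6.48 CPM. Occludin (OCLN, -0.57) and the scaffold TJP1 (0.05) were not called. Apical polarity and trafficking genes had 5 rises and no fall of 14 (median 0.68), led by CRB3, the Crumbs polarity protein, with 3, 2 and 3 counts against 38, 18 and 16, and RAB17, a GTPase of epithelial transport, with 9, 0 and 1 counts against 31, 15 and 31. LLGL2, a basolateral polarity protein, rose by 1.77 and EPS8L2, a regulator of actin bundles, by 1.31 on the log2 scale. Without mCherry replicate 1 the EPS8L2 call was lost and the polarity list had 3 rises.

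Of 9 desmosome genes, 3 rose and 1 fell. PPL, periplakin, had 6.34, 8.26 and 5.39 CPM against 31.7, 30.9 and 20.6 CPM (log2 fold change 2.06, SE 0.25). DSP, desmoplakin (1.36, adjusted p = 0.0296), and PKP3, a plakophilin (1.38, adjusted p = 0.03), rose, and PERP, a membrane protein of desmosomes, fell by 0.49 (adjusted p = 0.0485). The DSP, PKP3 and PERP calls were lost in 4, 6 and 13 of the alternative fits, and the list had 1 rise without mCherry replicate 2 or without OVOL2 replicate 1. The splicing regulators ESRP1 and ESRP2, which set epithelial exon choice, were not called: ESRP1 had 1.92, 2.25 and 2.04 CPM against 2.03, 4.46 and 6.24 CPM (log2 fold change 1.02, SE 0.38, adjusted p = 0.0894), and ESRP2 3.69, 1.502 and 3.50 CPM against 5.28, 6.55 and 3.36 CPM (0.78, SE 0.40, adjusted p = 0.219). In ESRP1, OVOL2 replicate 1 lay inside the mCherry range, and without it the change passed the test (adjusted p = 0.0186).

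Keratins rose in 6 of 8 tested genes, with a median of 1.54 and no fall. Keratins form the intermediate filaments of epithelial cells in pairs of a type I and a type II chain. KRT18 and KRT8, a pair of simple epithelium, rose by 1.04 (SE 0.09) and 1.54 on the log2 scale, and KRT7 by 1.27 (SE 0.10). KRT7 stood at 860, 946 and 959 CPM with mCherry and at 2233, 2186 and 2260 CPM with OVOL2, but at 1480 ± 33.7 CPM (SD, n = 3) in untreated cells, where it was another of the 4 genes that differed from mCherry with M2rtTA (log2 difference -0.68 for mCherry minus untreated, adjusted p = 0.0372). KRT80 had 71.3, 83.4 and 84.9 CPM against 267, 255 and 242 CPM (log2 fold change 1.67, SE 0.16). KRT10, of suprabasal epidermis, was not called (-0.37).

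Squamous genes were few but mostly higher. Of 28 genes listed for the cornified envelope and squamous differentiation 9 were expressed enough to be tested, and 7 of these rose and 1 fell (median 1.74); 8 of the list, among them IVL, SPRR2A and S100A7, had 0 counts in all 6 libraries. Besides GSDMA, KDF1, a factor of keratinocyte differentiation, had 4.57, 2.63 and 3.79 CPM against 25.8, 28.3 and 22.1 CPM (log2 fold change 2.77, SE 0.29). BSPRY had 2.36, 1.31 and 1.75 CPM against 8.52, 9.70 and 8.64 CPM (2.28), and CTSV, a lysosomal cathepsin of epidermis and thymus, 5.90, 8.82 and 4.22 CPM against 19.3, 13.4 and 10.1 CPM (1.19). The CTSV call was lost in 4 alternative fits. The count of the list fell to 3 rises without mCherry replicate 1 or without OVOL2 replicate 1, and to 4 without mCherry replicate 3. Of 10 tested genes listed for basal-like PDA, 7 rose and none fell (median 1.30): S100A2, CST6, KRT7, KRT15, CTSV, TNS4 and AREG, the EGF receptor ligand amphiregulin. That list had 4 rises without mCherry replicate 1, without mCherry replicate 3 or without OVOL2 replicate 1. Of 17 genes of the gastrointestinal program of classical PDA, 2 rose: SPINK4, a secreted protease inhibitor of goblet cells (3.25, 3.75 and 2.04 CPM against 24.1, 23.6 and 20.6 CPM; log2 fold change 2.92), and SDR16C5, a retinol dehydrogenase (1.62; lost in 2 alternative fits).

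Of 8 tested transcription factors of the mesenchymal state, 2 fell and none rose, and of 13 epithelial ones 1 rose and none fell. Of all genes tested, 7.45% were called higher and 8.4% lower. ZEB1, the zinc-finger repressor of E-cadherin, stood at 23.5, 21.0 and 21.7 CPM with mCherry and at 3.86, 5.51 and 6.00 CPM with OVOL2, 4.33-fold lower (log2 fold change -2.11, SE 0.32, adjusted p = 0.000588). SNAI2, a related repressor, had 9.74, 9.95 and 10.6 CPM against 5.68, 4.72 and 2.40 CPM (log2 fold change -1.23, adjusted p = 0.0193). Both groups of libraries were apart in these 2 genes, but the SNAI2 call was lost with all 51 libraries (adjusted p = 0.1254), without mCherry replicate 3 (0.0553) and without OVOL2 replicate 3 (0.0728), and the list of mesenchymal factors then had 1 fall in each of the last 2 fits. ZEB2 was not called (0.55), nor were 5 others of the 8 tested mesenchymal factors. Of 13 epithelial factors, OVOL2 itself was the only one called, and ELF3 (1.27), KLF4 (0.60) and KLF5 (0.65) were not. GRHL2, which works with OVOL2 in epithelia, had 5, 0 and 4 counts with mCherry and 2, 0 and 0 with OVOL2 and was not tested.

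Mesenchymal genes were mixed. VIM, vimentin, the mesenchymal intermediate filament, stood at 228, 247 and 241 CPM with mCherry and at 168, 162 and 204 CPM with OVOL2 (log2 fold change -0.43, SE 0.18, adjusted p = 0.121). The OVOL2 libraries were all lower, but the difference did not pass the test. Of 18 genes of the contractile and mesenchymal cytoskeleton, 4 rose and 2 fell: ACTN1, alpha-actinin, had 314, 314 and 306 CPM against 148, 146 and 123 CPM (-1.17, SE 0.15), whereas MYLK, myosin light chain kinase, rose by 1.24, FLNA, filamin A, by 0.63 and TPM4, a tropomyosin, by 0.42. The FLNA and TPM4 calls were each lost in 6 alternative fits, and without mCherry replicate 2 or OVOL2 replicate 1 the list had 1 rise.

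Matrix genes fell more often than they rose, 7 against 2 of 22 (median -0.58). The fallers included LOXL2, a lysyl oxidase that crosslinks collagen (33.8, 37.7 and 39.05 CPM against 14.4, 9.44 and 11.8 CPM; log2 fold change -1.63, SE 0.18), LOX, TGFBI and the collagens COL5A1, COL12A1 and COL13A1. The 2 that rose were COL1A1, a chain of fibrillar collagen I (5.02, 4.88 and 4.37 CPM against 20.1, 23.9 and 24.5 CPM; 2.26, SE 0.29), and COL17A1, the transmembrane collagen of hemidesmosomes (2.07, 3.19 and 2.77 CPM against 13.4, 9.44 and 11.04 CPM; 2.08, SE 0.31). FN1, fibronectin, was not called (-0.20). The falls were 4 without mCherry replicate 2. Among integrins and laminins 4 of 18 rose and 1 fell. LAMB3 (1.47), a laminin beta chain, and ITGB4 (1.32), the hemidesmosome integrin, rose, and ITGA5 (-1.44), the fibronectin receptor chain, fell. LAMB3 had 20.2, 21.2 and 17.5 CPM with mCherry and 59.3, 58.5 and 45.4 CPM with OVOL2. Of 20 further adhesion genes, CD44 fell with ALCAM and HEG1 (378, 384 and 417 CPM against 292, 256 and 264 CPM; -0.54). CDH6, a type II cadherin, was called higher on 11.7, 11.1 and 12.8 CPM against 204, 17.6 and 307 CPM, a rise carried by 2 of the 3 OVOL2 libraries that was lost in 8 alternative fits.

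**Figure D3:**
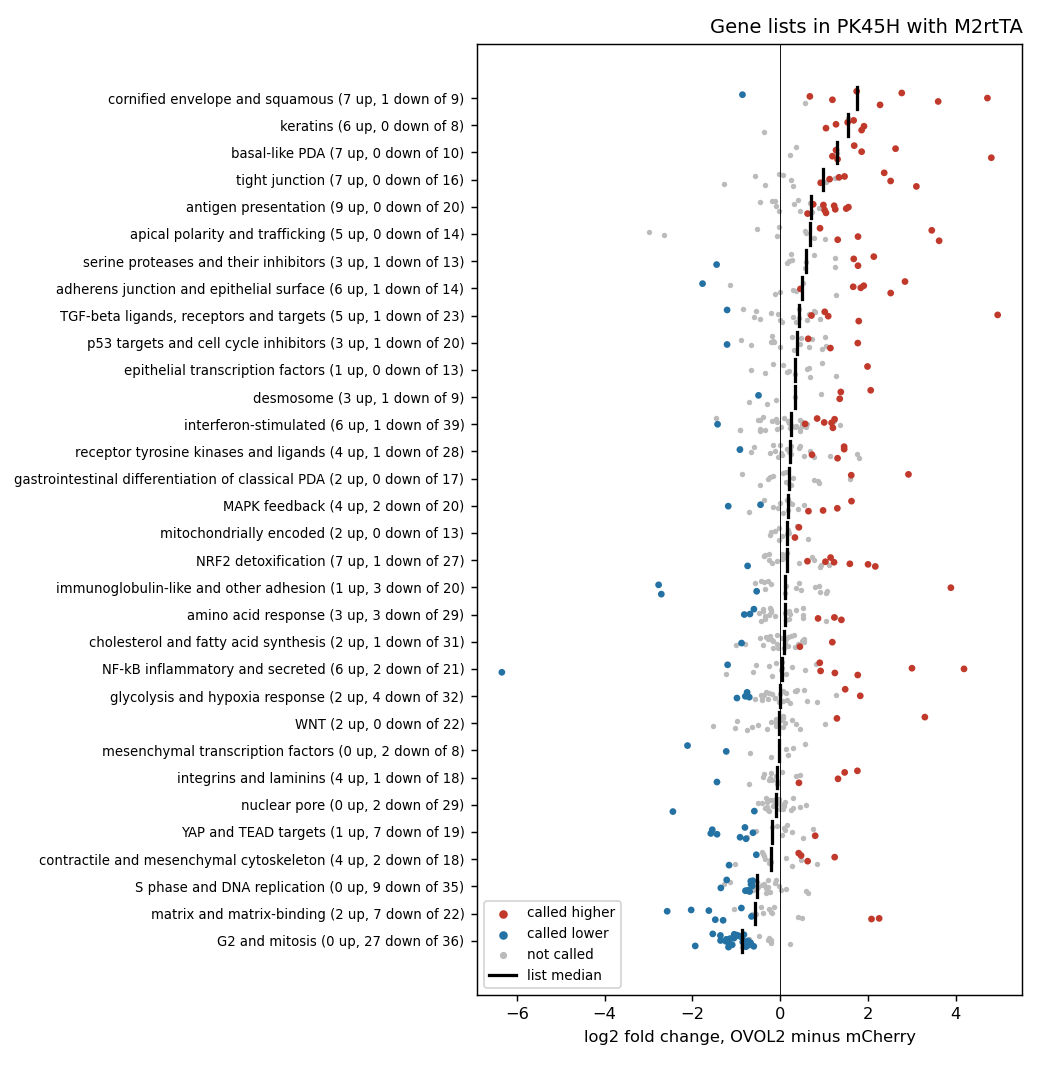
Log2 fold change of every tested gene in 32 lists, 1 row per list with its counts called up and down, ordered by the list median (black bar); red and blue points were called and grey points were not. The lists of G2 and mitosis, matrix, and S phase lie lowest, and those of squamous, keratin, basal-like PDA and tight junction genes highest, while single genes such as CXCL5 (far left) stand apart from their list.

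Cell cycle genes were lower in most members. Of 36 genes of G2 and mitosis, 27 fell and none rose, with a median of -0.87 against 0.0051 for all genes tested. BUB1, a kinase of the spindle checkpoint, had 23.02, 24.97 and 23.6 CPM with mCherry and 8.93, 3.93 and 5.52 CPM with OVOL2 (log2 fold change -1.94, SE 0.22, adjusted p = 5.41e-05). CCNB1, cyclin B1, had 275, 248 and 229 CPM against 130, 117 and 105 CPM (-1.09, SE 0.17), and NDC80, a kinetochore protein, had 119, 116 and 109 CPM against 52.2, 65.3 and 48.5 CPM (-1.05). NCAPG, a condensin subunit, fell by 0.87 on the log2 scale. The summed level of the list was 2699 to 2853 CPM with mCherry and 1446 to 1659 CPM with OVOL2, so that all 3 OVOL2 libraries lay below all 3 mCherry libraries. MKI67 was not called (-0.26). Leaving out 1 library at a time left 20 to 25 falls.

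Of 35 genes of S phase and DNA replication, 9 fell and none rose (median -0.53). RRM2, a subunit of ribonucleotide reductase, had 134, 113 and 142 CPM against 84.0, 91.8 and 76.3 CPM (log2 fold change -0.62, SE 0.13). GINS3, of the replicative helicase, fell by 1.35, and CDT1, a licensing factor, by 0.70 (its call was lost in 3 alternative fits). The list had 4 falls without mCherry replicate 2 and 6 without mCherry replicate 3. Of 20 tested genes of the p53 response and cell cycle inhibition, 3 rose and 1 fell. CDKN1A, the inhibitor p21, had 45.5, 44.3 and 48.7 CPM with mCherry and 129, 93.1 and 83.8 CPM with OVOL2 (log2 fold change 1.14, SE 0.19, adjusted p = 0.00107). GDF15, a stress-induced cytokine, rose by 1.77 and TNFRSF10B, a TRAIL receptor, by 0.64, FAS, a death receptor, fell by 1.21, and MDM2 was not called (-0.14). The TNFRSF10B, FAS and GDF15 calls were lost in 5, 2 and 1 of the alternative fits, and without mCherry replicate 2 the list had 1 rise.

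Genes of antigen presentation rose in 9 of 20 and fell in none (median 0.70). HLA-C had 270, 292 and 304 CPM with mCherry and 956, 780 and 724 CPM with OVOL2 (log2 fold change 1.51, SE 0.14, adjusted p = 1.4e-05). HLA-B rose by 1.25 (SE 0.13) and CD74, the invariant chain of MHC class II, by 1.04 (SE 0.12). HLA-B and HLA-C are near-identical in part and may share reads, so the split between them is uncertain. The list's summed level was 2168 to 2231 CPM against 3586 to 4908 CPM, with no overlap. The transporter TAP1 (-0.18) and the immunoproteasome subunit PSMB9 (-0.45) were not called. Of 39 interferon-stimulated genes, 6 rose and 1 fell (median 0.24). IFI27 had 181, 195 and 177 CPM against 464, 448 and 358 CPM (log2 fold change 1.201), ISG15, a ubiquitin-like modifier, rose by 1.00 and IRF9, a subunit of the ISGF3 factor, by 1.17, while IFITM2 fell by 1.43. Most of the list, MX1 (0.50) and OAS1 (-0.18) included, was not called.

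In the list of NF-kB and secreted inflammatory genes, 6 rose and 2 fell of 21, around a median of 0.05. With LCN2, C3, the central complement component, had 40.3, 34.7 and 41.7 CPM against 148, 130 and 119 CPM (log2 fold change 1.77, SE 0.14, adjusted p = 3.7e-06), and LTB, lymphotoxin beta, had 1.33, 2.82 and 2.04 CPM against 17.4, 16.2 and 15.6 CPM (3.00, SE 0.33). The feedback genes NFKBIA (0.28) and TNFAIP3 (0.04) were not called, and CXCL5 and SAA1 fell. Serine proteases and their inhibitors had 3 rises and 1 fall of 13. SPINT1, the inhibitor HAI-1 of matriptase, had 10.6, 10.5 and 8.60 CPM against 42.2, 49.0 and 39.4 CPM (log2 fold change 2.13, SE 0.33), KLK6, a kallikrein, rose by 1.77 and SERPINB5, maspin, by 1.68 (lost in 2 alternative fits), and PLAT, tissue plasminogen activator, fell by 1.45.

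Of 23 genes of the TGF-beta family and its targets 5 rose and 1 fell (median 0.43): BMP4, a ligand, had 82.6, 103 and 95 CPM against 346, 323 and 301 CPM (log2 fold change 1.79, SE 0.23), TGFB1, also a ligand, rose by 1.02 (SE 0.13), PMEPA1, a target and inhibitor, by 0.71, and TGFBR1, the type I receptor, fell by 1.21. The rises were 3 without mCherry replicate 1 or without mCherry replicate 2. YAP and TEAD targets fell in 7 of 19 and rose in 1 (median -0.20). NT5E, the ectonucleotidase CD73, had 103, 93.7 and 106 CPM against 35.5, 35.1 and 32.9 CPM (log2 fold change -1.55, SE 0.15), CCN2 29.7, 30.6 and 30.4 CPM against 9.34, 12.8 and 8.16 CPM (-1.58), and CCN1 fell by 1.44 and RBMS3 by 0.80 (its call was lost in 3 alternative fits). YAP1 (0.15) and WWTR1 (-0.07) themselves were not called, and the falls were 4 without mCherry replicate 3 and the median was 0.04 without OVOL2 replicate 3. WNT genes rose in 2 of 22 and fell in none, a share of rises near the 7.45% of all genes tested. WNT9A, a ligand, had 3.10, 1.502 and 1.31 CPM against 21.1, 19.7 and 18.5 CPM (log2 fold change 3.30, SE 0.36, adjusted p = 5.11e-05), and WNT7A rose by 1.29.

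Receptor tyrosine kinases and their ligands had 4 rises and 1 fall of 28, against 7.45% called higher and 8.4% called lower of all genes tested. AREG had 32.2, 31.4 and 27.4 CPM against 80.4, 102 and 42.7 CPM (log2 fold change 1.31), MST1R, the RON receptor, rose by 1.46 and EGFR by 0.72, and FGFR1 fell by 0.92. Of 20 MAPK feedback genes 4 rose and 2 fell: DUSP5, a phosphatase of ERK, rose by 0.98, SPRED3 by 1.62 and EGR1 by 1.30, and ETV5 fell by 1.18; the SPRED3 and EGR1 calls were each lost in 1 alternative fit, and the list had 2 rises without mCherry replicate 2 and 1 fall without OVOL2 replicate 3. EGFR rose while DUSP6 (0.19) and CCND1 (0.06) were not called.

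NRF2 and detoxification genes rose in 7 of 27 and fell in 1 (median 0.15). ABCC3, an organic anion exporter, had 37.2, 29.1 and 41.4 CPM against 197, 148 and 139 CPM (log2 fold change 2.17, SE 0.17, adjusted p = 4.45e-06), FTH1, ferritin heavy chain, 892, 825 and 771 CPM against 2079, 1721 and 2024 CPM (1.23, SE 0.11), and NQO1 rose by 1.15. AKR1C2 rose by 2.00, but its reads may be shared with its near copies AKR1C1 and AKR1C3. HMOX1 (0.05), GCLM (-0.26) and TXNRD1 (0.04), further NRF2 targets, were not called.

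Of 32 genes of glycolysis and the hypoxia response, 2 rose and 4 fell. GAPDH had 1772, 1653 and 2121 CPM with mCherry and 902, 939 and 958 CPM with OVOL2 (log2 fold change -0.99, SE 0.10), and LDHA, lactate dehydrogenase A, fell by 0.80. VEGFA, the angiogenic growth factor, had 20.5, 19.0 and 19.8 CPM against 60.9, 55.3 and 49.5 CPM (1.48, SE 0.15), and NDRG1 rose by 1.82. Amino acid response genes counted 3 rises and 3 falls of 29. DDIT3, the factor CHOP, rose by 1.23 and ATF5 by 1.39, and the serine synthesis enzymes PSAT1 (-0.69) and PHGDH (-0.82) fell. The PHGDH call was lost in 4 alternative fits, and the list had 1 fall without mCherry replicate 3 or without OVOL2 replicate 3. In cholesterol and fatty acid synthesis, 2 of 31 rose, among them HMGCS1 (1.19), and 1 fell, FDPS (-0.88), neither share above that of all genes tested (7.45% higher, 8.4% lower). The amino acid response counts and the rises among glycolysis and hypoxia genes were also near those shares. Among 13 mitochondrially encoded genes ND5 (0.43) and COX1 (0.34, adjusted p = 0.0496) rose, and among 29 nuclear pore genes AAAS (36.0, 50.1 and 41.1 CPM against 7.71, 8.13 and 7.44 CPM; -2.45, SE 0.28) and NDC1 (-0.59) fell. The share of falls among nuclear pore genes was near the 8.4% of all genes tested. The NDC1, COX1 and ND5 calls were lost in 10, 7 and 6 alternative fits.

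Few markers of other cell types had enough counts to be tested, and 3 of them were called. Summed leukocyte markers were 8.55 to 12.2 CPM with mCherry and 19.6 to 27.4 CPM with OVOL2; of the 3 tested, HLA-DRA rose (5.16, 5.82 and 3.79 CPM against 20.3, 10.2 and 12.5 CPM), while PTPRC had 7, 9 and 8 counts against 4, 3 and 6 and CD3D had 0 counts throughout. Summed fibroblast markers were 51.4 to 56.3 CPM against 59.7 to 64.8 CPM, with COL1A1 the only 1 of 5 called and DCN at 15, 17 and 23 counts against 5, 13 and 8. Summed endothelial markers overlapped, at 11.1 to 18.9 CPM against 16.8 to 21.0 CPM, and none of 3 was called. Of the 10 acinar markers only PRSS1 was tested, the list sum was 0.911 to 1.87 CPM against 6.25 to 6.604 CPM, and CPA1 had 0 counts with mCherry and 1, 0 and 0 with OVOL2. Summed ductal markers were 1986 to 2160 CPM against 4646 to 4776 CPM, with 5 of 9 called, the keratins and EPCAM, and none lower. The part of other cell types in these results was not tested.

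A number of genes had a spike in a single library. In 197 of the genes tested (1.45%) at least 1 of the 6 libraries stood 5-fold or more above both of its mates (0.5 CPM added). These include 34 of the 2153 called genes (1.58%), 25 called higher and 9 lower, and OVOL2 replicate 3 held a spike in 17 of them. DIS3L, an exosome exoribonuclease, had 393, 132 and 174 counts with mCherry and 84, 85 and 48338 with OVOL2, and was called 6.75 higher on the log2 scale (adjusted p = 0.0208); without OVOL2 replicate 3 its log2 fold change was -0.87. MTA2, of the NuRD complex, had 1750, 34806 and 1139 counts against 976, 492 and 631 and was called lower (-3.86). CERS5, a ceramide synthase, had 24457 counts in OVOL2 replicate 2 and ADAT2, a tRNA deaminase subunit, 21413 there, and SLC25A37, the iron importer mitoferrin-1, and ZNF280B had 22382 and 19867 counts in OVOL2 replicate 3. In each of these 4 genes, all called higher, that 1 library stood far above the other 5, and the log2 fold change turned negative without it in CERS5 (-1.02), ADAT2 (-0.25) and ZNF280B (-0.26). The MTA2 and SLC25A37 calls were lost in 8 and 7 alternative fits. Only 3 of the 34 were called in all 6 fits that leave out 1 library, and with the 197 genes left out, 2119 were called. The rule does not flag a gene in which more than 1 library of a group is raised. GOLM2 with mCherry and CDH6 with OVOL2 are of that kind and were not flagged.

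**Figure D4:**
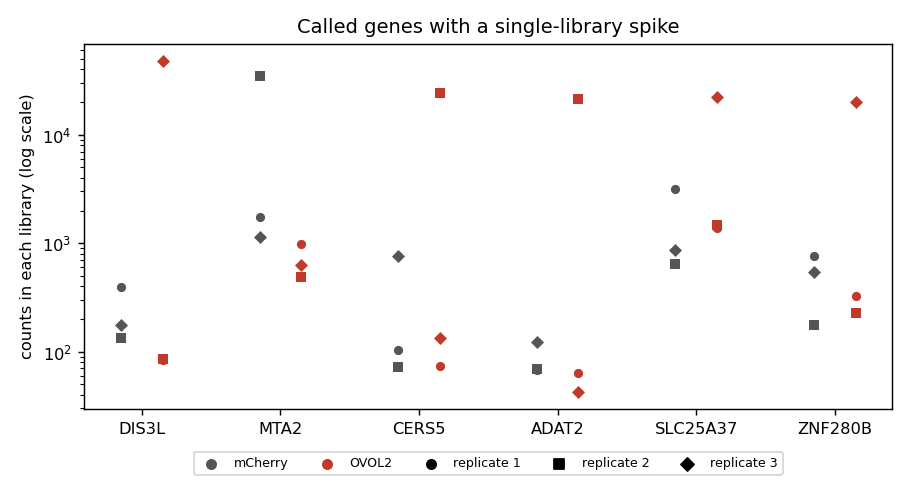
Counts of the 6 called genes with the highest single-library levels, in each library (log axis), grey for mCherry and red for OVOL2, with a symbol per replicate. In each gene 1 symbol stands at 19867 counts (ZNF280B) or above and the other 5 lie far below it.

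The same contrast without M2rtTA, in PK45H libraries that share none with those above, called fewer genes: 1139 (8.39%), 486 higher (3.58%) and 653 lower (4.81%). Of the 2153 genes called with M2rtTA, 80.5% had the same sign without it, against 60.6% of all genes tested, and 576 were called in the same direction and 16 in the opposite one. Their median absolute log2 fold change was 0.96 with M2rtTA and 0.45 without. Across these genes Pearson's r between the log2 fold changes was 0.62, and 0.30 over all 13583; genes are not independent replicates, and the called set was chosen in 1 of the arms. The libraries without M2rtTA include the shallowest of the PK45H set (2439323 counts).

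CDH1 rose by 2.93 without M2rtTA and EPCAM by 1.802, HEG1 fell by 3.62 and ZEB1 fell by 2.96, and no difference between arms was detected for these 4 genes: it was -0.41 (SE 0.40, adjusted p = 0.637) for CDH1, 0.03 (SE 0.23, 0.959) for EPCAM, 0.84 (SE 0.22, 0.0716) for HEG1 and 0.84 (SE 0.47, 0.372) for ZEB1. VIM and ESRP1, not called with M2rtTA, were called without it. There VIM fell by 1.325 (adjusted p = 0.000369) and ESRP1 rose by 2.12 (adjusted p = 0.00644). The difference between arms was not called for VIM (0.90, SE 0.25, adjusted p = 0.0869) or ESRP1 (-1.10, SE 0.58, adjusted p = 0.339). A difference between arms was called in 217 genes (1.6%), 114 with a more positive and 103 with a more negative change with M2rtTA, and 160 of the 217 were among the called genes above. The count was 107, 116 and 100 without mCherry replicate 1, 2 and 3, and 144 without OVOL2 replicate 2. GSDMA showed it most plainly: without M2rtTA it stood at 2.23 ± 0.62 CPM with mCherry and 2.85 ± 0.38 CPM with OVOL2 (SD, n = 3), so the log2 fold change was 0.34 there and 4.72 here (difference 4.38, SE 0.40, adjusted p = 0.000131). C1QTNF1, a secreted C1q-related protein, rose by 1.04 with M2rtTA and fell by 3.21 without (difference 4.25, SE 0.32).

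MARCKSL1, an actin-binding membrane protein, and CRABP2, a retinoic acid carrier, changed by 0.05 and -0.15 with M2rtTA, where they were not called, and by -2.29 and -1.93 without. S100A4, a calcium-binding protein linked to motility, rose by 0.96 here and fell by 0.85 there. ALCAM fell by 2.71 here and by 0.93 there (difference -1.78, SE 0.16, adjusted p = 0.000114), and EPDR1 by 2.67 and 0.89. G0S2, an inhibitor of lipolysis, fell by 1.49 here and rose by 1.01 there. LRCH4 (-0.93 here, 0.72 there) and KIF3B, a kinesin (-1.05 here, 0.61 there), also turned; KIF3B stood at 91.2, 84.5 and 66.0 CPM with mCherry and M2rtTA but at 40.9 ± 4.92 CPM in untreated cells, near the OVOL2 level of 42.6, 36.2 and 37.5 CPM. WNT9A, COL1A1, TGFB1, HLA-B and HLA-C rose with M2rtTA and were not called without it, and the difference between arms was called in each (adjusted p of 0.00414, 0.0133, 0.00414, 0.0126 and 0.0127). Of the G2 and mitosis list 10 of 36 fell without M2rtTA against 27 with it, but in no member of that list was the difference between arms called.

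**Figure D5:**
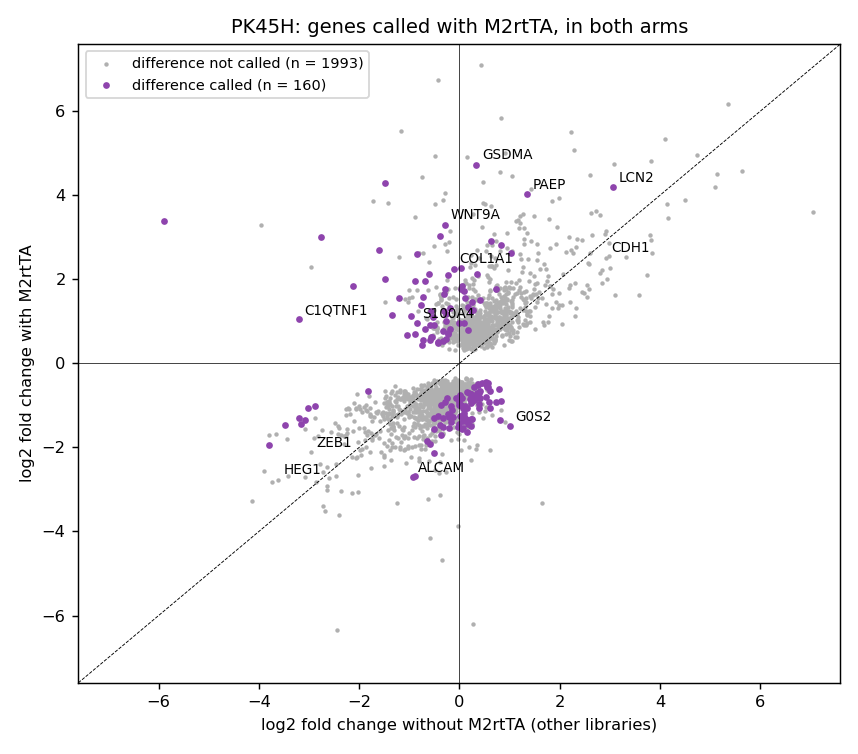
Log2 fold change of the 2153 genes called with M2rtTA (vertical axis) against the value of the same gene without M2rtTA, from other PK45H libraries (horizontal axis); purple points are the 160 genes with a called difference between arms and 2 genes lie beyond the axes. CDH1 and ZEB1 lie near the dashed line of equality, and GSDMA and WNT9A lie high near the vertical zero line.

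Against KP4 and PANC1, 2 other PDA lines given OVOL2 or mCherry with M2rtTA, the PK45H change differed from their mean in 538 of 14943 genes (3.6%), 301 more positive (2.01%) and 237 more negative (1.59%), and in 334 genes without mCherry replicate 2. In that fit of 45 libraries, 2151 of the genes called here were tested, and 87.1% had the same sign in KP4 and 80.0% in PANC1, against 69.2% and 63.3% of all genes. In KP4 1091 of them were called in the same direction and 31 in the opposite one, of 3154 genes called there (21.1%). In PANC1 the counts were 679 and 44, of 2075 (13.9%). Both lines shared 529 of the calls, and 847 were called in neither.

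LCN2 differed most clearly from the other lines: its log2 fold change was 0.64 in KP4 and -0.27 in PANC1 (difference 3.997, SE 0.32, adjusted p = 3.4e-10). GSDMA changed by -0.04 and -0.45 there (difference 4.96, SE 0.43), and KRT19 rose by 0.43 in KP4 and fell by 0.55 in PANC1 (difference 1.96, SE 0.17). THSD7A, a thrombospondin-repeat protein, and PLAC8 rose here by 2.32 and 1.17 in that fit, and the differences were 3.21 and 2.38. PLAC8 fell in both other lines, by 1.36 and 1.05. In the other direction CTSV rose by 3.08 in KP4 and 4.70 in PANC1 against 1.19 here (difference -2.70), and ISG15 by 3.61 and 0.77 against 1.00 (difference -1.19). APOBEC3B fell here and rose by 1.31 in KP4 (difference -3.59), and PEA15 and PARVA, an adhesion scaffold, fell here by 1.03 and 1.36 (differences -1.199 and -1.13). VIM fell by 1.65 in KP4 and 1.90 in PANC1, and its change of -0.43 here differed from their mean (difference 1.34, SE 0.15, adjusted p = 3.42e-07), whereas for CDH1 (difference -0.02, SE 0.46) and ZEB1 (-0.26, SE 0.48) no difference was detected. The VIM difference holds for cells with M2rtTA only: in PK45H without M2rtTA, VIM fell by 1.325 (adjusted p = 0.000369), and that arm was not compared with the other lines.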

How the data were processed

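Libraries were made by PLATE-seq, a plate-based 3′ RNA-seq method, from 100 ng RNA per the labels' protocols. The authors deposited a table of counts per gene for all libraries; the submitters' processing notes name kallisto 0.44.0 and GRCh38, without their roles. The deposited counts are whole numbers and may be rounded estimates, and whether strand was used or duplicate molecules were removed is not given in the sources used here. Close paralogues can therefore share reads.

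The 15 PK45H libraries (5 groups of 3) were fitted together in edgeR 4.0.16 (R 4.3.3; filterByExpr, TMM, quasi-likelihood test, adjusted p under 0.05 over 13583 of 25421 genes), and SEs came from its test statistic. The difference between lines came from a fit of 45 libraries. DESeq2 1.42.0, RLE scaling, other filters, thinning, other library sets, a replicate block and leaving out each library were the alternatives, and the fits were tested on simulated data. Library totals set the precision; intervals and floors cover counting error only.

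The members and the 37 gene lists were chosen with earlier results of these data known. Named genes were OVOL2, CDH1, EPCAM, ESRP1, ESRP2, ZEB1, VIM and GRHL2; the 10 with the smallest p in each direction and the 6 of largest size (mean of at least 5 CPM), both without a spike; up to 4 called members of each list with the smallest p, with uncalled members as examples; the 6 highest called spikes; and the 5 with the smallest p in each direction for each difference. List members named beyond these, and KRT8, KRT15, LOX, SAA1, TNS4, PTPRC, DCN and CPA1, were chosen after their values were seen. Some genes that the rule names are not reported here. Promoter windows came from the RefSeq table (GRCh38.p14).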

Additional observations from a re-analysis of the deposited data

Results flagged for a closer look

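The change with OVOL2 differed between PK45H cells with and without M2rtTA in 217 genes, by a test of the difference itself in edgeR. The 5 with the smallest p in the positive direction were C1QTNF1 (difference of log2 fold changes 4.25), GSDMA (4.38), CRABP2 (1.78), MARCKSL1 (2.34) and S100A4 (1.81). In the negative direction they were ALCAM (-1.78), G0S2 (-2.50), EPDR1 (-1.79), LRCH4 (-1.65) and KIF3B (-1.67).

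The change with OVOL2 in PK45H differed from the mean change of KP4 and PANC1 in 538 genes, by the same kind of test. The leading positive differences were in LCN2 (3.997), KRT19 (1.96), GSDMA (4.96), THSD7A (3.21) and PLAC8 (2.38). The leading negative ones were in CTSV (-2.70), PEA15 (-1.199), APOBEC3B (-3.59), ISG15 (-1.19) and PARVA (-1.13). GSDMA stood out in both comparisons.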

How the results depend on the processing

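Of the 2153 called genes, 998 (46.4%) were called in all 6 fits that left out 1 library (444 higher, 554 lower), and 2141 kept their sign in all 6. Those fits called 1387 to 1694 genes, 589 to 860 higher and 785 to 947 lower. The 6 libraries alone gave 1424 calls, 690 of them lower. For the difference between arms the counts were 100 to 272 on leaving out 1 library and 127 after thinning, and for the difference between lines 334 to 440. RLE scaling gave 2130 calls, DESeq2 2389, no filter on low counts 1703 and thinning 1657. Same-numbered libraries did not deviate together (r of 0.0483, -0.0183 and -0.1529), so the numbers were not taken as pairs; with a replicate block 1813 genes were called, 116 for the difference between arms and 517 for that between lines. Leaving out 1 library at a time moved the log2 fold change of DIS3L between -0.87 (without OVOL2 replicate 3) and 7.33, of ZNF280B between -0.26 (without OVOL2 replicate 3) and 5.01, of CERS5 between -1.02 (without OVOL2 replicate 2) and 7.22, and of ADAT2 between -0.25 (without OVOL2 replicate 2) and 7.70. The cause of these shifts was not tested. Genes with few counts, such as OVOL2 and CRB3, are limited by depth.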

Other observations

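Several gene families outside the lists were counted after their values were seen, with no test. Of 8 tested subunits of CCT, the chaperonin that folds actin and tubulin, 6 fell and none rose (median log2 fold change -0.65), and without M2rtTA none was called. Of 37 proteasome subunits 11 fell and none rose (median -0.32), and of 32 Sm and LSM proteins, which form the core of spliceosomal particles, 12 fell and none rose (-0.49); without M2rtTA none of either family was called. Mitochondrial ribosomal proteins fell in 21 of 77 and rose in 1 (-0.24), against 2 falls without M2rtTA, whereas cytosolic ribosomal proteins rose in 6 and fell in 3 of 82. Of 28 kinesins, motors of which several act in the spindle, 9 fell and 1 rose (-0.47). Of 418 genes named as ZNF zinc fingers 26 rose and 10 fell (0.17), and of 11 S100 genes 5 rose and 1 fell. For all genes tested, 7.45% rose and 8.4% fell. Whether a family differs between the arms was not tested for the family as a whole.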
